A study of Homo sapiens with 14 samples.

Results

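The genes described here are 10 immediate early genes, FOS, FOSB, JUN, JUNB, EGR1, EGR2, EGR3, IER2, NR4A1 and DUSP6, found by name among the 19923 genes of the count tables. Each of the 10 names occurred in all 14 RNA-seq libraries. The cells were SK-N-BE2, an established neuroblastoma line with an amplified MYCN gene, grown in RPMI medium with serum. In batch 1, wild-type cells received H2O or cobalt chloride (CoCl2), at 10 µM in one group and 50 µM in another. CoCl2 is a salt commonly used to mimic low oxygen. Batch 2 held untreated cells labelled WT and untreated cells labelled TET2KO #1, TET2KO #2 and TET2KO #3, called knockout 1, 2 and 3 below; TET2 is an enzyme that oxidises 5-methylcytosine in DNA. Every group had 2 libraries. The labels give neither the time in CoCl2, nor how the knockouts were made or whether each is 1 clone, nor whether replicates were separate cultures, so the p-values measure only the spread between these libraries, which may be technical.

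Immediate early genes are transcribed within minutes of a stimulus from factors that are already present in the cell, and their short-lived mRNAs fall again soon after. Growth factor signalling through the kinase ERK reaches many of them by way of the serum response factor SRF and its ELK partners, which bind CArG box DNA. FOS and FOSB proteins pair with JUN or JUNB to form AP-1, a dimer that binds TGANTCA sites. EGR1, EGR2 and EGR3 are zinc finger factors, NR4A1 is an orphan nuclear receptor, and IER2 is a small nuclear protein. DUSP6 is not a transcription factor: it is a phosphatase that removes phosphate from ERK and so limits the signal that induces it.

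Of the 10 genes, 6 were lower at both cobalt doses and also in knockout 2, namely FOS, FOSB, JUN, EGR1, IER2 and DUSP6, although the DUSP6 call at 10 µM was lost in DESeq2 (adjusted p = 0.064) and in other settings given below. Of the 13373 genes tested in both batches, 2.91% were called lower in the same 3 comparisons, of which the cobalt pair share their H2O libraries. The upstream sequences of the 6 are shown so that genes with falls in both batches can be compared. Each line gives the 250 bases before the start site, 5′ to 3′ on the gene's own strand, from RefSeq on GRCh38.p14. Capitals mark matches to the motifs described after the sequences.
FOS, chr14:75278578-75278827, plus strand: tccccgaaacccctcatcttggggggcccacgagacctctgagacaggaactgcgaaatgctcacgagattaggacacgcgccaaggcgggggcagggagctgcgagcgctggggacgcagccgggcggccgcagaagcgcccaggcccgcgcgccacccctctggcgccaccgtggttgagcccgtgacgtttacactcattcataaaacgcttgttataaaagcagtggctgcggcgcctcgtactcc
FOSB, chr19:45467746-45467995, plus strand: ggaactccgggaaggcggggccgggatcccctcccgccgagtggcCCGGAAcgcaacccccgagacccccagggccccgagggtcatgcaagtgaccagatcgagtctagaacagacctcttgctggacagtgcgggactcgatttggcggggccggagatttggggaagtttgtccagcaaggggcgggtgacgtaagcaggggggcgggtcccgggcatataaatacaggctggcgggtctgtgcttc
JUN, chr1:58784048-58784297, minus strand: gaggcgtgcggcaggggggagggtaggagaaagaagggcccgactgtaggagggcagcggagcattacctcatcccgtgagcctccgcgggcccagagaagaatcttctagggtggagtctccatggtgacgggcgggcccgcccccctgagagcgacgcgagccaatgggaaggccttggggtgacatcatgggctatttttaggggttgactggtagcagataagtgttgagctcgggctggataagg
EGR1, chr5:138465229-138465478, plus strand: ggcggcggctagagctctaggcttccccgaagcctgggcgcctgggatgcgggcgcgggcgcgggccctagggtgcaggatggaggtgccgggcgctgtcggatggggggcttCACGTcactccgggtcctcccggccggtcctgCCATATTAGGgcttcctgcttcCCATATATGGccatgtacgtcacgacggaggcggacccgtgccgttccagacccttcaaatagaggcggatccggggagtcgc
IER2, chr19:13150161-13150410, plus strand: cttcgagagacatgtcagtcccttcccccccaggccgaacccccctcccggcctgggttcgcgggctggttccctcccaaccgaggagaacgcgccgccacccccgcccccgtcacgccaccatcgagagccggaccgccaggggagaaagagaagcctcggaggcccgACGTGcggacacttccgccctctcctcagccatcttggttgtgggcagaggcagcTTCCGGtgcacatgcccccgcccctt
DUSP6, chr12:89352502-89352751, minus strand: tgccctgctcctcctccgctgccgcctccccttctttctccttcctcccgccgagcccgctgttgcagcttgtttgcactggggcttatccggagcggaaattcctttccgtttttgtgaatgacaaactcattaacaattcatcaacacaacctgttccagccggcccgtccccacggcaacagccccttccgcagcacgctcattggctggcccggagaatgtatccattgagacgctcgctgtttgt

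Both strands of these windows were searched for the CArG box, the cyclic AMP element TGACGTCA, the AP-1 site TGANTCA, the EGR site GCGTGGGCG, the hypoxia element core ACGTG and the ETS core CCGGAA. A window was available for 9 of the 10 genes; the window of EGR3, on chromosome 8, was not analysed here. EGR1 held 2 CArG boxes, CCATATTAGG at 105 to 96 bases and CCATATATGG at 83 to 74 bases before its start. The only other CArG box lay in EGR2, so 2 of 9 genes had one, against 1.16% of all 35116 human promoter windows of the same length. Here and below a gene counted if any of its windows matched, while the shares are per window. EGR2 and NR4A1 had multiple windows, so the gene counts and the shares are not like for like. ACGTG was found in EGR1, EGR2 and IER2, and in 18.5% of all windows. CCGGAA was found in FOSB, IER2 and NR4A1, and in 14.5% of all windows. TGACGTCA, TGANTCA and GCGTGGGCG were in none of the 9 genes' windows, and in 1.65%, 6.57% and 0.72% of all windows. A match is a run of letters and not a measured binding site, and sites farther upstream were not searched.

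The genes were compact. Their median span from first to last exon was 4884 bases, against 33812 bases for the 14312 genes tested in either batch. At most 5 merged exon blocks made up 8 of the 10 genes, against 21.2% of the tested genes. JUN (chr1:58780791-58784047, minus strand) and JUNB (chr19:12791486-12793315, plus strand) each formed a single exon block. FOS (chr14:75278826-75282230, plus strand), FOSB (chr19:45467995-45475179, plus strand), EGR1 (chr5:138465479-138469303, plus strand) and IER2 (chr19:13150411-13154911, plus strand) had 3, 3, 2 and 2 blocks. DUSP6 (chr12:89347235-89352501, minus strand), NR4A1 (chr12:52022832-52059507, plus strand) and EGR2 (chr10:62811996-62919900, minus strand) had 4, 11 and 10 blocks. JUNB exons overlapped those of HOOK2 on the opposite strand, and the counting used no strand option, so reads of both genes cannot be told apart there.

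The libraries of batch 1 held 31214128 to 39540111 counts each. Those of batch 2 held 52095024 to 59263320, and there a count was mostly 1 read, not 1 fragment. TET2 itself was at 70.8 and 64.8 CPM (counts scaled to a common library total) in WT, at 80.4 and 76.6 in knockout 1, at 87.4 and 91.1 in knockout 2, and at 68.2 and 75.4 in knockout 3. TET2 mRNA was not called lower in any labelled knockout, and it was called higher in knockout 1 (log2 fold change 0.21, edgeR adjusted p = 0.000664) and knockout 2 (0.40, edgeR adjusted p = 3.86e-12). The knockout 1 call was lost without WT replicate 2 (edgeR adjusted p = 0.103). At 50 µM CoCl2 TET2 was higher than in H2O by 0.17 (edgeR adjusted p = 1.00e-06), a call that was not followed through the alternative fits. A count over the whole gene does not show whether an exon carries a deletion. Among markers of adrenergic neuroblastoma, MYCN ranged from 2815 to 5577 CPM over the 14 libraries. The 4 immune markers were near 0, with a summed level of at most 0.112 CPM in any library.

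Levels of different genes were compared as CPM per kilobase of exon. In H2O the order was EGR1 at 66.1 ± 0.223 (SD, n = 2), JUNB at 65.7 ± 0.270, IER2 at 58.1 ± 1.51, FOS at 43.6 ± 0.188, DUSP6 at 41.2 ± 0.399 and JUN at 31.4 ± 0.740 CPM per kb. NR4A1 followed at 5.93 ± 0.296 and FOSB at 1.57 ± 0.0728 CPM per kb. EGR3 and EGR2 stood last, at 0.0756 ± 0.00643 and 0.0653 ± 0.00425 CPM per kb. EGR1 and JUNB overlapped within 1 SD, as did EGR3 and EGR2, and the other neighbours in this order did not. In WT the order was DUSP6 at 45.7 ± 0.101, IER2 at 35.9 ± 0.430, EGR1 at 34.6 ± 0.362, JUNB at 33.2 ± 0.421, JUN at 26.7 ± 0.0616 and FOS at 7.32 ± 0.118 CPM per kb, followed by NR4A1 at 3.28 ± 0.145 and FOSB at 0.409 ± 0.00111. EGR3 at 0.0788 ± 0.0112 and EGR2 at 0.0390 ± 0.0133 CPM per kb were again the lowest.

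The untreated cells of the batches stood far apart for FOS. Its mean was 138.9 CPM in H2O and 23.3 CPM in WT, a ratio of 5.96, and that of FOSB was 8.71 and 2.27 CPM, a ratio of 3.84. JUNB, EGR1, NR4A1 and IER2 were 1.98, 1.91, 1.81 and 1.62 times as high in H2O as in WT. JUN at 1.18 times, EGR3 at 0.959 times and DUSP6 at 0.902 times were closer to equal. These ratios were not tested: the cultures, the batch and the counting cannot be told apart, and all comparisons below stay within a batch.

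**Figure D1:**
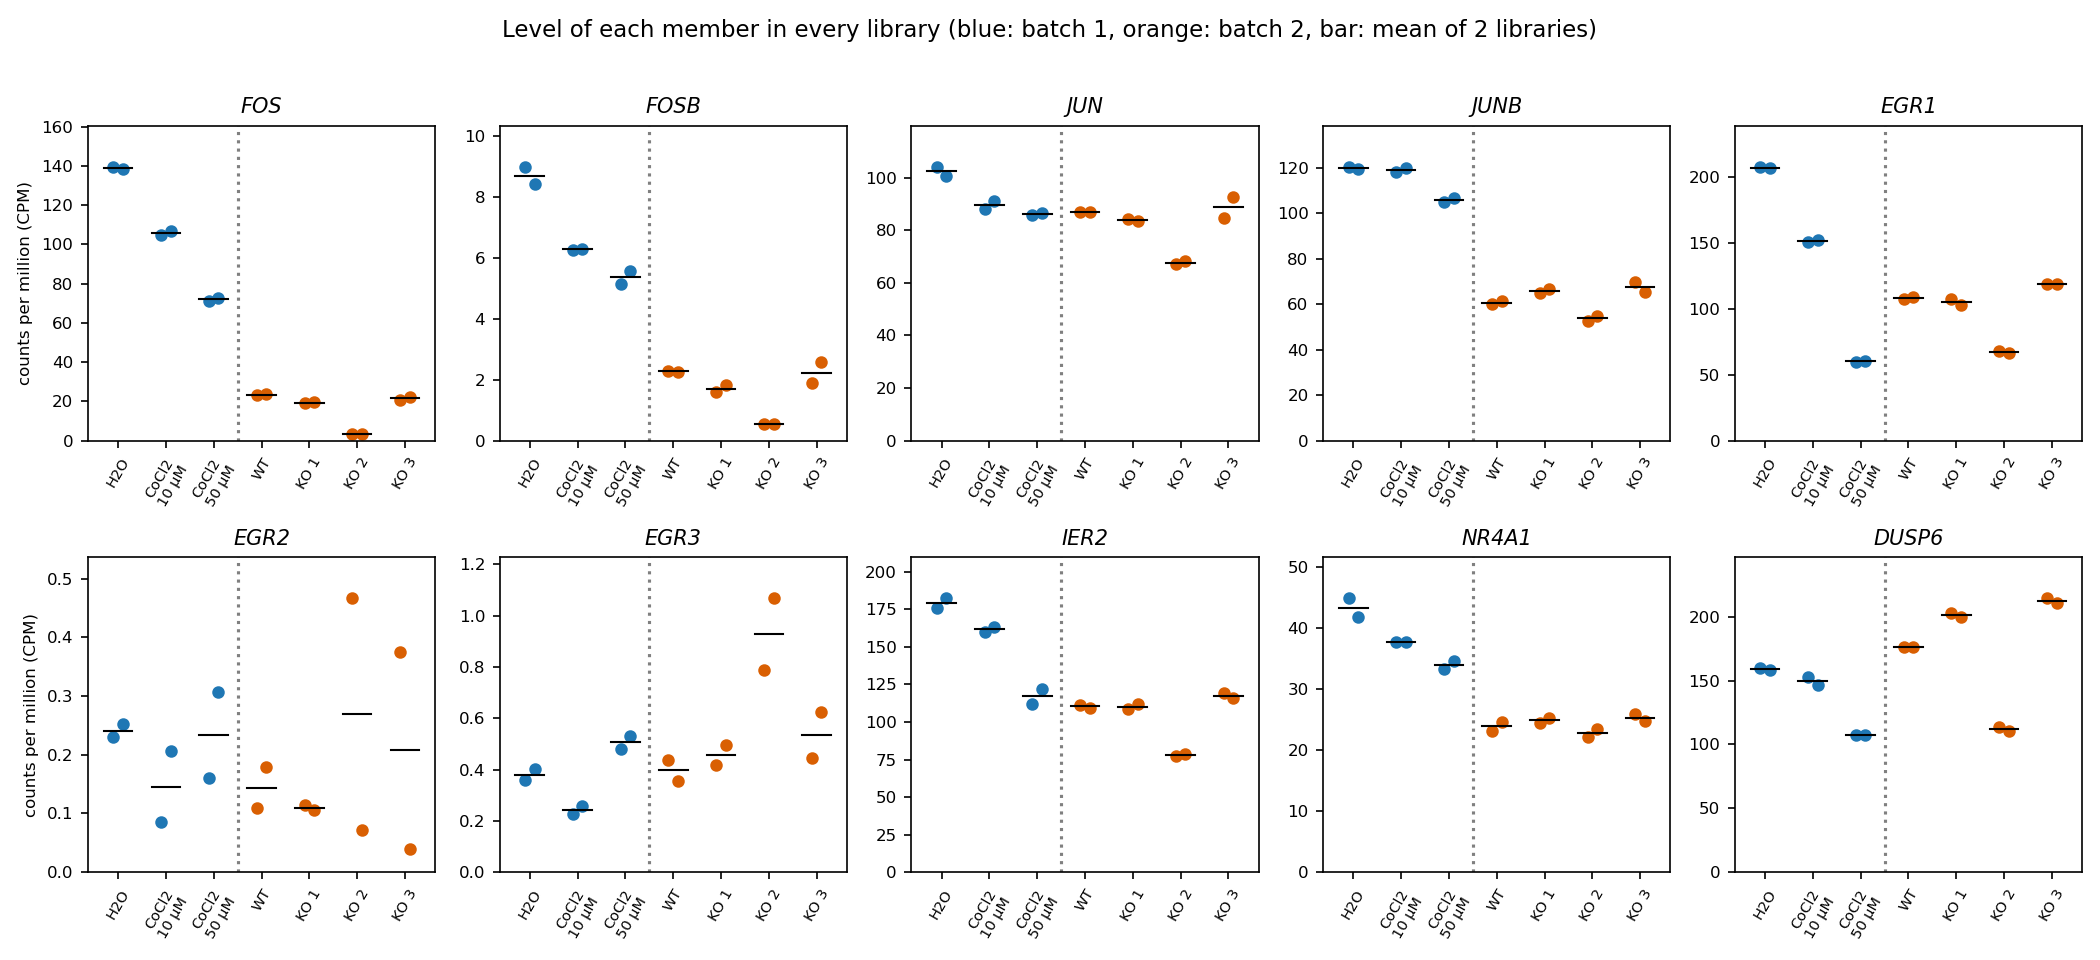
CPM (linear axis from 0) of each of the 10 genes in all 14 libraries, by group. Points are libraries, bars are means of 2 libraries, and the dotted line separates batch 1 (blue) from batch 2 (orange). FOS steps down from 139.4 and 138.5 CPM in H2O to 71.3 and 72.5 CPM at 50 µM CoCl2, and within batch 2 it is lowest in knockout 2 at 3.34 and 3.47 CPM.

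At 10 µM CoCl2 the transcripts of FOS, FOSB and EGR1 were already lower than in H2O, by a modest amount. FOS, the AP-1 subunit most often used as a marker of recent stimulation, was at 139.4 and 138.5 CPM in H2O and at 104.8 and 106.6 CPM in 10 µM CoCl2. EGR1 was at 207.8 and 206.9 CPM in H2O and at 151.1 and 152.5 CPM in 10 µM. FOSB was at 8.99 and 8.42 CPM in H2O and at 6.27 and 6.30 CPM in 10 µM. For each of these 3 genes both treated libraries lay below both controls. The share of all tested genes whose groups of 2 libraries did not overlap was not counted, here or in the comparisons below. The log2 fold change was -0.39 (SE 0.03) for FOS, -0.45 (SE 0.02) for EGR1 and -0.47 (SE 0.09) for FOSB, with adjusted p = 2.39e-30, 2.73e-42 and 1.76e-05 by the quasi-likelihood test of edgeR (adjusted by the Benjamini-Hochberg method over all genes tested in the batch).

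In all, 7 of the 9 members tested were called at 10 µM, at an adjusted p under 0.05, and all 7 were lower, where 22.7% of the 13636 tested genes were called, 11.6% higher and 11.1% lower. The other called members fell by less: NR4A1 by 0.20, JUN by 0.19, IER2 by 0.15 and DUSP6 by 0.09 on the log2 scale. The DUSP6 call did not hold in every setting: its adjusted p was 0.00175 in edgeR, 0.064 in DESeq2, 0.106 with all 14 libraries in 1 edgeR fit and 0.186 in edgeR without 10 µM replicate 2. JUNB was at 118.4 and 120.0 CPM against 120.5 and 119.8 CPM in H2O (log2 fold change -0.01, SE 0.03, edgeR adjusted p = 0.803). EGR3 was counted 14 and 16 times in H2O and 8 and 10 times at 10 µM (log2 fold change -0.64, SE 0.45, edgeR adjusted p = 0.33). EGR2 was below the count filter of batch 1, with 9 and 10 counts in H2O, 3 and 8 at 10 µM, and 5 and 11 at 50 µM.

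At 50 µM CoCl2 the falls were larger, and EGR1 led them. EGR1, a zinc finger factor induced by growth signals, was at 59.8 and 60.6 CPM, against 207.8 and 206.9 CPM in H2O. Its level was 3.45-fold lower (log2 fold change -1.78, SE 0.03, edgeR adjusted p = 2.41e-116), the 72nd lowest log2 fold change of 13636 genes. FOS was at 71.3 and 72.5 CPM, 1.93-fold below H2O (log2 fold change -0.95, SE 0.03, edgeR adjusted p = 6.03e-73). FOSB, the less abundant FOS relative, was at 5.15 and 5.57 CPM and had fallen by 0.70 on the log2 scale (SE 0.10, edgeR adjusted p = 1.83e-10). None of these treated libraries overlapped the controls, but the share of all tested genes without overlap was not counted.

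The JUN partners of FOS moved less than FOS did. JUN was at 104.1 and 100.7 CPM in H2O and at 85.7 and 86.5 CPM in 50 µM (log2 fold change -0.25, SE 0.03, edgeR adjusted p = 5.49e-14). JUNB was at 105.0 and 106.6 CPM in 50 µM against 120.5 and 119.8 CPM (log2 fold change -0.18, SE 0.03, edgeR adjusted p = 9.65e-10). IER2 went from 175.7 and 182.3 CPM to 112.3 and 121.8 CPM (log2 fold change -0.61, SE 0.03, edgeR adjusted p = 1.03e-53). The groups did not overlap for these genes, with the same limit that the share over all tested genes was not counted. NR4A1 went from 44.8 and 41.7 CPM to 33.2 and 34.5 CPM (log2 fold change -0.35, SE 0.04, edgeR adjusted p = 4.70e-13). DUSP6, the ERK phosphatase, went from 160.3 and 158.1 CPM to 107.8 and 107.6 CPM (log2 fold change -0.56, SE 0.03, edgeR adjusted p = 5.74e-49). Both were again lower in each treated library than in each control.

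Of the 9 members tested, 8 were called at 50 µM and all 8 were lower, where 61.4% of tested genes were called, 30.4% higher and 31.1% lower. A call alone was thus common at this dose. The median log2 fold change of the 9 was -0.56, against 0.00 for all genes tested. EGR3, at 15 and 19 counts against 14 and 16 in H2O, did not pass (log2 fold change 0.41, SE 0.38, edgeR adjusted p = 0.356). The 8 calls were made in each of the alternative fits tried for this comparison.

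**Figure D2:**
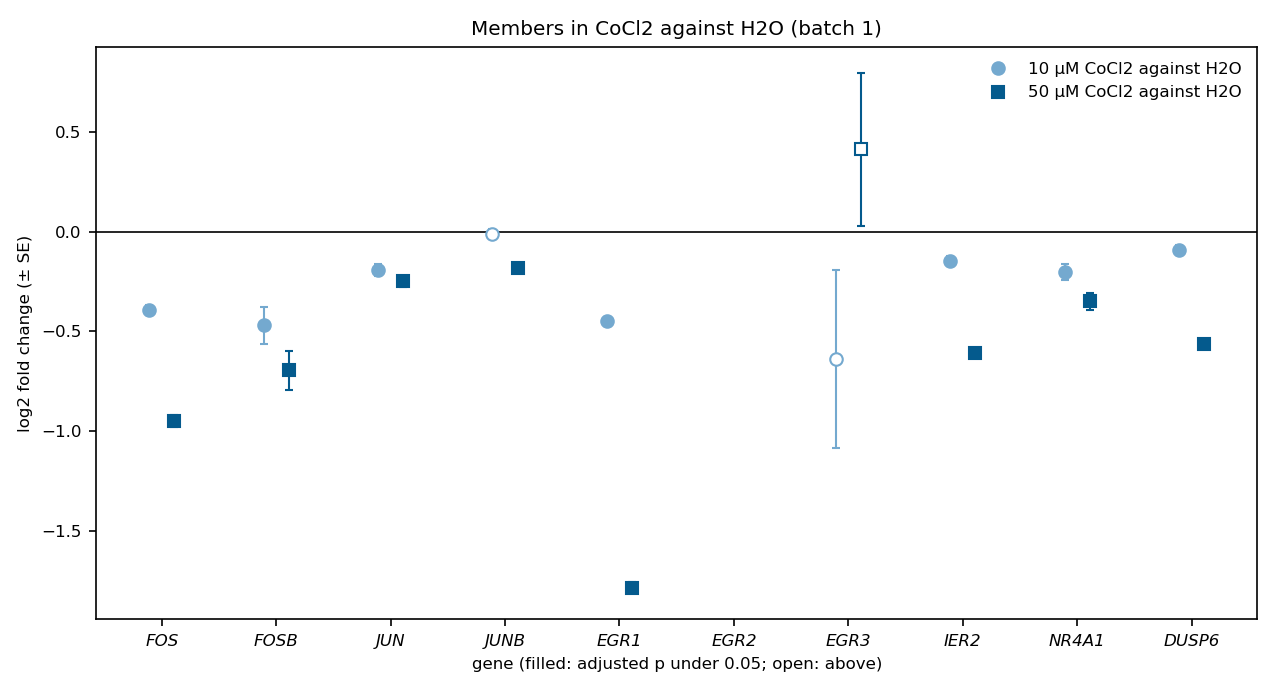
Log2 fold change (vertical axis, error bars ± SE) of each member against H2O at 10 µM CoCl2 (circles) and 50 µM CoCl2 (squares), with filled symbols for an adjusted p under 0.05. EGR1 lies at -0.45 and -1.78 and FOS at -0.39 and -0.95, while EGR3 has an open symbol and wide bars at both doses and EGR2 is absent because it was not tested in batch 1.

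Between the doses, 5 members fell further from 10 to 50 µM by more than the replicate spread in edgeR and DESeq2 alike. EGR1 fell by 1.33 on the log2 scale (SE 0.03, edgeR adjusted p = 7.08e-93), FOS by 0.56, DUSP6 by 0.47, IER2 by 0.46 and JUNB by 0.17. JUNB differed between the doses (edgeR adjusted p = 1.78e-08) although it was not called at 10 µM against H2O. NR4A1 fell by 0.15 with an edgeR adjusted p of 0.00269, which was 0.0611 in DESeq2 and 0.0581 with all 14 libraries in 1 edgeR fit. FOSB and JUN had most of their difference at 10 µM already: from 10 to 50 µM their log2 fold changes were -0.23 (SE 0.11, edgeR adjusted p = 0.0666) and -0.06 (SE 0.03, edgeR adjusted p = 0.103). EGR3 was the exception in direction, higher at 50 than at 10 µM by 1.05 (SE 0.43, edgeR adjusted p = 0.0327). That call rested on 15 and 19 against 8 and 10 counts, and its adjusted p was 0.196 in DESeq2, 0.148 in edgeR with all 14 libraries and 0.0674 to 0.153 in edgeR when any 1 of the 4 libraries was left out. Of all tested genes 52.8% were called between the doses, 26.2% higher and 26.5% lower at 50 µM, and of the 9 members 7 were called.

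In the labelled knockouts the members behaved differently by knockout number. Knockout 2 had low FOS and FOSB and moderately low EGR1, DUSP6, IER2 and JUN, whereas 2 and 3 of the 10 genes were called in knockouts 1 and 3. FOS was at 23.1 and 23.6 CPM in WT, 19.1 and 19.6 in knockout 1, 3.34 and 3.47 in knockout 2, and 20.9 and 22.2 in knockout 3. The knockout 2 libraries held 186 and 192 FOS counts, against 1267 and 1322 in WT. FOS was 6.84-fold lower in knockout 2 than in WT (log2 fold change -2.77, SE 0.12, edgeR adjusted p = 3.98e-59), the 23rd lowest of 14061 genes. FOSB was at 2.27 and 2.27 CPM in WT, 1.60 and 1.82 in knockout 1, 0.538 and 0.543 in knockout 2, and 1.88 and 2.57 in knockout 3. Its knockout 2 libraries, with 30 and 30 counts, were 4.19-fold below WT (log2 fold change -2.07, SE 0.32, edgeR adjusted p = 1.80e-08).

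The other members differed less in knockout 2. EGR1 had 107.7 and 109.3 CPM in WT and 67.7 and 66.5 CPM in knockout 2 (log2 fold change -0.69, SE 0.05, edgeR adjusted p = 1.86e-32). DUSP6 had 176.2 and 176.7 CPM in WT and 113.8 and 110.4 CPM in knockout 2 (log2 fold change -0.65, SE 0.04, edgeR adjusted p = 1.84e-37). IER2 had 111.4 and 109.6 CPM in WT and 77.5 and 78.5 CPM in knockout 2 (log2 fold change -0.50, SE 0.05, edgeR adjusted p = 1.14e-20). These 3 genes had no overlap between knockout 2 and WT libraries, and the share of all tested genes without overlap was not counted. JUN had 86.8 and 87.1 CPM in WT and 67.2 and 68.2 CPM in knockout 2 (log2 fold change -0.36, SE 0.05, edgeR adjusted p = 1.31e-10). JUNB had 60.2 and 61.2 CPM in WT and 52.7 and 54.8 CPM in knockout 2 (log2 fold change -0.18, SE 0.05, edgeR adjusted p = 0.00801). The JUNB call was lost in edgeR without WT replicate 2 (adjusted p = 0.0549) or without knockout 2 replicate 1 (adjusted p = 0.118).

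NR4A1 was not called in knockout 2, at 22.1 and 23.4 CPM against 23.2 and 24.7 CPM in WT (log2 fold change -0.07, SE 0.08, edgeR adjusted p = 0.537). EGR3 went the other way, with 44 and 59 counts in knockout 2 against 24 and 20 in WT (log2 fold change 1.22, SE 0.43, edgeR adjusted p = 0.0217). The EGR3 call was lost in DESeq2 (adjusted p = 0.0562) and in edgeR without WT replicate 1 (0.0619), WT replicate 2 (0.144) or knockout 2 replicate 2 (0.206). EGR2 was counted 6 and 10 times in WT, 6 and 6 in knockout 1, 26 and 4 in knockout 2, and 22 and 2 in knockout 3. It passed the count filter through 1 library each of knockouts 2 and 3, whose replicates differed several-fold, and it was called in no knockout (edgeR adjusted p = 0.84, 0.418 and 0.677 in knockouts 1, 2 and 3). In all, 8 of 10 members were called in knockout 2, 7 lower and 1 higher, where 26.3% of the 14061 tested genes were called, 14.3% lower and 12% higher.

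**Figure D3:**
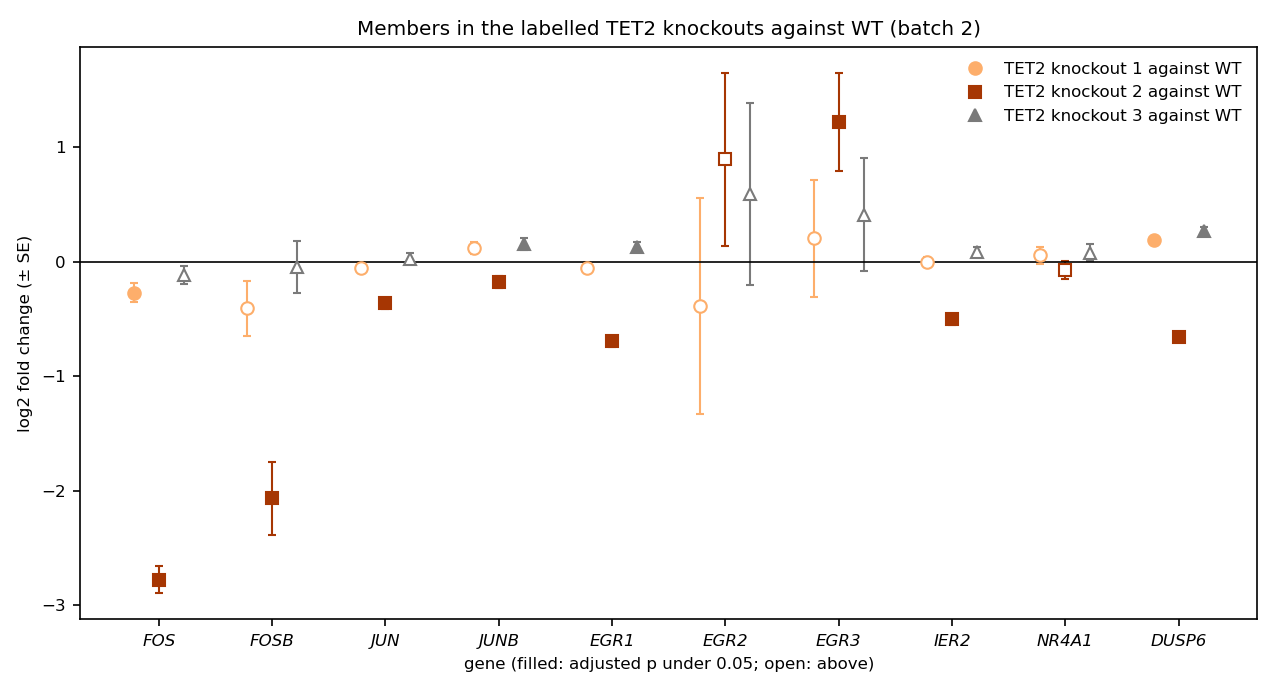
Log2 fold change (vertical axis, error bars ± SE) of each member against WT in knockout 1 (circles), knockout 2 (squares) and knockout 3 (triangles), with filled symbols for an adjusted p under 0.05. FOS at -2.77 and FOSB at -2.07 in knockout 2 lie far below the values of the same genes in knockouts 1 and 3, which are between -0.41 and -0.04.

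In knockout 1, 2 of 10 members were called, where 17.5% of tested genes were, 7.79% higher and 9.72% lower. FOS fell by 0.27 on the log2 scale (SE 0.08, edgeR adjusted p = 0.00914), a call lost in edgeR without WT replicate 2 (adjusted p = 0.0738) or without knockout 1 replicate 1 (adjusted p = 0.0734). DUSP6 was higher, at 202.8 and 200.2 CPM (log2 fold change 0.19, SE 0.04, edgeR adjusted p = 2.02e-05). FOSB had a log2 fold change of -0.41 (SE 0.24, edgeR adjusted p = 0.267), and EGR1, JUN and IER2 had values of -0.05, -0.05 and -0.00, none of them called.

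In knockout 3, 3 of 10 members were called and all were higher, where 18.9% of tested genes were called, 8.9% higher and 9.96% lower. DUSP6 was at 214.4 and 210.5 CPM (log2 fold change 0.27, SE 0.04, edgeR adjusted p = 7.59e-10). JUNB, at 69.7 and 65.6 CPM, and EGR1, at 118.8 CPM in both libraries, had log2 fold changes of 0.16 and 0.13 (edgeR adjusted p = 0.0189 and 0.0208). Those 2 calls were fragile: EGR1 was lost in edgeR whichever of the 4 libraries was left out (adjusted p from 0.0594 to 0.133), and JUNB without WT replicate 1 (0.128), WT replicate 2 (0.0553) or knockout 3 replicate 1 (0.305). FOS had a log2 fold change of -0.12 (SE 0.08, edgeR adjusted p = 0.326). DUSP6 thus rose in knockouts 1 and 3 and fell in knockout 2.

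Averaged over the 3 labelled knockouts, 5 of 10 members were called and all were lower, where 18.9% of tested genes were called, 7.54% higher and 11.4% lower. FOS had an average log2 fold change of -1.05 (SE 0.07, edgeR adjusted p = 2.16e-30), FOSB of -0.84, EGR1 of -0.20, IER2 of -0.14 and JUN of -0.13. An average hides the split between the knockouts. A test of the difference among knockouts 1, 2 and 3 called 7 of 10 members, FOS, FOSB, JUN, JUNB, EGR1, IER2 and DUSP6, where it called 37.6% of tested genes. The span between the highest and lowest knockout was 2.66 for FOS, 2.02 for FOSB, 0.92 for DUSP6 and 0.82 for EGR1 on the log2 scale, with edgeR adjusted p from 3.38e-63 to 8.75e-08 for these 4. Without WT replicate 1 the average was called for 3 members, JUN (edgeR adjusted p = 0.083) and IER2 (0.0617) being lost, and without WT replicate 2 JUN was lost (0.086).

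Knockout 2 was also compared with the mean of knockouts 1 and 3, a comparison chosen after the values were seen. The log2 fold change was -2.58 (SE 0.11) for FOS, -1.84 (SE 0.30) for FOSB, -0.88 (SE 0.04) for DUSP6, -0.73 (SE 0.04) for EGR1, -0.55 (SE 0.04) for IER2, -0.35 (SE 0.04) for JUN and -0.31 (SE 0.05) for JUNB, all 7 of them called. The share of tested genes called in this comparison was 35.2%, with 17.8% higher and 17.4% lower. EGR3 was higher by 0.91 (SE 0.35, edgeR adjusted p = 0.0282; DESeq2 adjusted p = 0.0812), and NR4A1 had a log2 fold change of -0.14 (edgeR adjusted p = 0.0855). Leaving out knockout 1 replicate 1, knockout 2 replicate 2 or knockout 3 replicate 1 also ended the EGR3 call, with edgeR adjusted p from 0.0636 to 0.304.

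**Figure D4:**
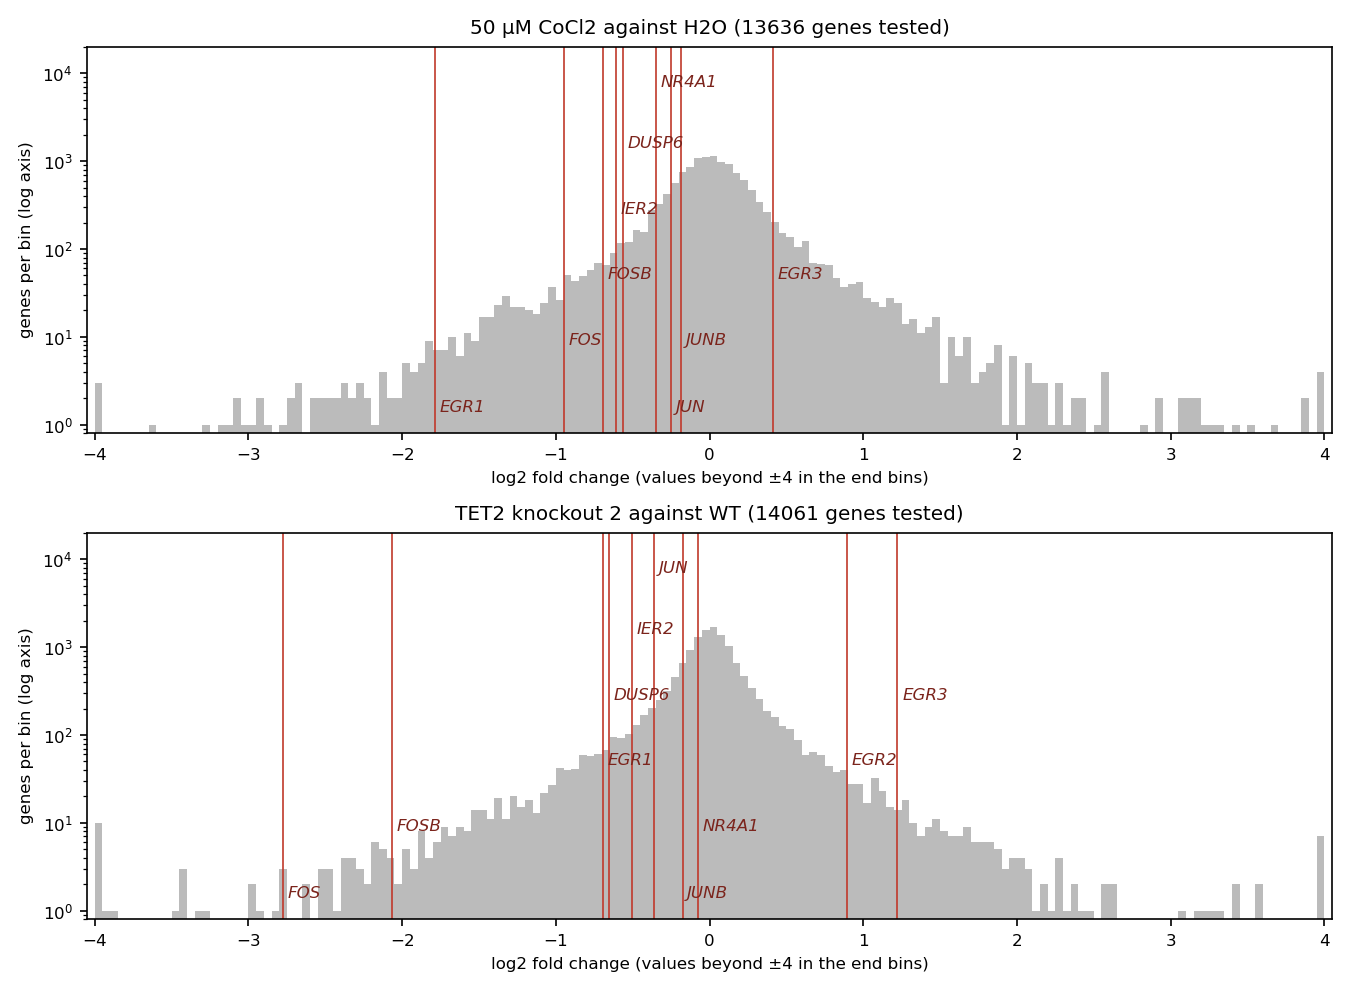
Histograms of the log2 fold change of every tested gene (grey, log vertical axis) at 50 µM CoCl2 against H2O (upper, 13636 genes) and in knockout 2 against WT (lower, 14061 genes), with a red line for each member. EGR1 at -1.78 stands farthest left of the members in the upper panel, and FOS at -2.77 and FOSB at -2.07 in the lower one, while NR4A1 at -0.07 lies within the bulk of genes.

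The leading gene differed between the 2 settings. EGR1 had the lowest log2 fold change of the members at 50 µM CoCl2, being 3.45-fold lower where FOS was 1.93-fold lower, while in knockout 2 FOS was 6.84-fold lower and EGR1 1.62-fold lower. The batches do not share control libraries, but their controls started from different levels of FOS, and this difference in order was not tested.

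The other genes of these pathways, taken from lists chosen with earlier results of these data known, were called in both directions at 50 µM in each list. For the list counts from here on, the shares of all tested genes called were 22.7% at 10 µM and 61.4% at 50 µM. They were 52.8% between the doses, 26.3% in knockout 2 and 18.9% in the knockout average. A count near its share is no result about a list. Among 11 AP-1 partners, 9 were tested in batch 1, and at 50 µM 4 were higher and 1 lower (median log2 fold change 0.36, against 0.00 for all genes). FOSL2, another FOS relative, had 114.4 and 113.8 CPM in H2O against 182.8 and 181.7 at 50 µM, a rise of 0.68 (SE 0.02, edgeR adjusted p = 7.89e-61), and it had risen by 0.28 at 10 µM. MAFF, a small MAF protein, fell by 0.29 at 50 µM. In the knockout average 4 of 10 tested AP-1 partners were lower and none higher (median -0.29). FOSL1, a further FOS relative, was at 6.15 and 5.98 CPM in WT, 1.84 and 2.74 in knockout 1, 5.04 and 5.57 in knockout 2, and 2.00 and 2.40 in knockout 3. FOSL1 was thus lowest in knockouts 1 and 3, and FOS in knockout 2. The average log2 fold change of FOSL1 was -1.02 (SE 0.13, edgeR adjusted p = 5.10e-11), and it was higher in knockout 2 than in the mean of knockouts 1 and 3 by 1.24 (SE 0.16, edgeR adjusted p = 4.47e-12).

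Of the EGR and NR4A relatives and EGR corepressors, 4 of 5 were tested, and at 50 µM 1 was higher and 3 lower (median -0.27). NAB2, a corepressor that binds EGR proteins, rose by 0.35 (SE 0.04, edgeR adjusted p = 4.06e-12), and in the knockout average it was higher by 0.27 (SE 0.05, edgeR adjusted p = 1.53e-06). NAB2 exons overlap STAT6 on the opposite strand, with the same limit as for JUNB, and so do those of MAFF (PLA2G6), ELK4 (MFSD4A), MRTFA (SGSM3), DNAJB1 (TECR) and DDIT3 (MARS1 and MBD6), which are named in other lists. NR4A3, a relative of NR4A1, had a log2 fold change of -0.48 at 50 µM (edgeR adjusted p = 0.0346) that was not called in DESeq2 (adjusted p = 0.195) or in edgeR with any 1 of the 4 libraries left out (0.0728 to 0.135). At 10 µM the log2 fold changes of these 4 genes lay between -0.14 and 0.06, with NAB2 at 0.06 (edgeR adjusted p = 0.376).

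The 17 genes of ERK feedback and output split in both directions at 50 µM, 5 higher and 8 lower, with a median log2 fold change of -0.01. DUSP4, a nuclear phosphatase for ERK and so a relative of DUSP6, was at 225.6 and 224.8 CPM in H2O and at 367.1 and 367.7 CPM at 50 µM, a rise of 0.71 (SE 0.02, edgeR adjusted p = 4.53e-78). DUSP4 and DUSP6 therefore moved in opposite directions at this dose. At 10 µM DUSP4 had risen by 0.24 and PHLDA1, a growth factor induced gene, had fallen by 0.29, and 4 of the 17 were higher and 6 lower. PHLDA1 was at 98.5 and 98.5 CPM in H2O and at 53.4 and 50.9 CPM at 50 µM (log2 fold change -0.92, SE 0.03, edgeR adjusted p = 2.00e-62). In the knockout average DUSP4 rose by 0.22 and PHLDA1 fell by 0.66, with 2 of 17 genes higher and 4 lower. PHLDA1 was low in all 3 labelled knockouts, at 91.7 to 99.5 CPM against 152.3 and 147.7 CPM in WT, with edgeR adjusted p = 0.445 for a difference among them.

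Among 7 regulators of the SRF pathway, 3 were higher and 3 lower at 50 µM (median 0.00). MRTFA, a coactivator of SRF, had risen by 0.30 (SE 0.04) and ELK3, an ETS-family partner, had fallen by 0.37 (SE 0.03). At 10 µM their changes were 0.17 and -0.13, and both calls were lost in DESeq2 (adjusted p = 0.108 and 0.0729). In edgeR MRTFA was also lost without H2O replicate 2 (adjusted p = 0.0949) or 10 µM replicate 1 (0.181), and ELK3 without 10 µM replicate 2 (0.0701). In the knockout average 2 of 7 were lower and none higher, and ELK3 fell by 0.24 (SE 0.04, edgeR adjusted p = 4.86e-07).

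Of 22 other immediate early genes, 18 were tested in batch 1, with 7 higher and 7 lower at 50 µM (median -0.00) and 4 lower and none higher at 10 µM. ZFP36L1, which promotes mRNA decay, was at 1.81 and 1.61 CPM in H2O and at 0.512 and 0.812 CPM at 50 µM (log2 fold change -1.35, SE 0.25, edgeR adjusted p = 9.15e-07). At 10 µM it fell by 0.81, a call lost in edgeR without 10 µM replicate 1 (adjusted p = 0.123) or with all 14 libraries in 1 fit (0.111). NPAS4, a neuronal activity factor, was under 1 CPM throughout, and its rise of 1.22 at 50 µM was lost in DESeq2 (adjusted p = 0.125) and in edgeR without H2O replicate 1 (0.153) or 50 µM replicate 2 (0.152). In knockout 2 none of the 20 tested genes was higher and 11 were lower, where 12% and 14.3% of all tested genes were. The median log2 fold change in knockout 2 was -0.36 beside -0.43 for the members. In knockout 1, 6 of the 20 were higher and 5 lower, where 7.79% and 9.72% of all tested genes were. Knockout 3 had 4 higher and 6 lower, where 8.9% and 9.96% were. Against the mean of knockouts 1 and 3, knockout 2 had 4 higher and 10 lower, where 17.8% and 17.4% were. The 4 higher included ZFP36L1, by 1.11, and CCN2, by 1.65, both called lower than WT in all 3 labelled knockouts. In the knockout average 2 of 20 were higher and 9 lower (median -0.09). CCN2, a matricellular protein gene, was at 6.89 and 7.76 CPM in WT and at 0.742 to 3.08 CPM in the knockouts (average log2 fold change -2.45, SE 0.15, edgeR adjusted p = 2.10e-37). IER5L had an average of 0.28 that was lost without WT replicate 1, WT replicate 2 or knockout 2 replicate 1 (edgeR adjusted p = 0.0604, 0.227 and 0.0563).

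Between 10 and 50 µM the same lists gave 3 higher and none lower among AP-1 partners, 1 and 2 among EGR and NR4A relatives, 4 and 6 among ERK feedback genes, 3 and 3 among SRF regulators, 6 and 6 among other immediate early genes and 4 and 2 among stress genes. Of all tested genes 26.2% were called higher and 26.5% lower in this comparison. FOSL2 rose by a further 0.40 and NAB2 by 0.29, and NR4A2, another NR4A1 relative, fell by 0.40. PHLDA1 fell by 0.63 and ELK3 by 0.25, while ELK4, an SRF partner, rose by 0.17. ARC, a neuronal activity gene, went from 96.6 and 97.4 CPM to 54.3 and 57.0 CPM (log2 fold change -0.80, SE 0.03, edgeR adjusted p = 5.59e-55). HSPA6, a heat shock gene under 1 CPM, rose by 1.99 (edgeR adjusted p = 1.69e-05) and HSPH1 fell by 0.35. The rises of DUSP2 and KLF2, of 1.44 and 0.75, were called in edgeR (adjusted p = 0.0363 and 0.0165) and not in DESeq2 (adjusted p = 0.217 and 0.172). In edgeR DUSP2 was also lost without 10 µM replicate 1 (adjusted p = 0.257), 50 µM replicate 1 (0.0835) or 50 µM replicate 2 (0.137), and KLF2 without 10 µM replicate 2 (0.147) or 50 µM replicate 2 (0.246).

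**Figure D5:**
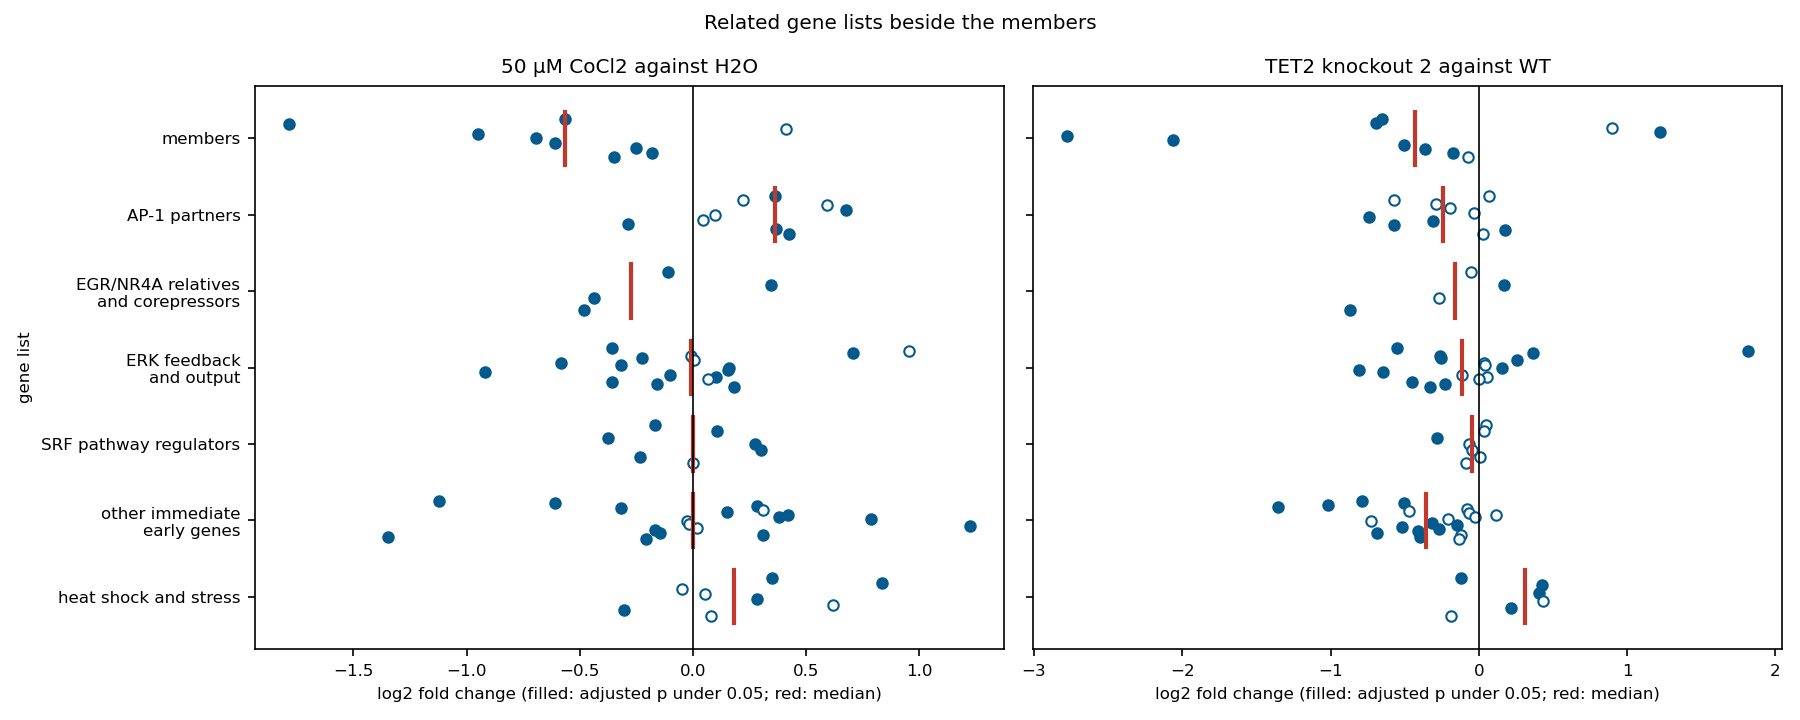
Log2 fold change (horizontal axis) of each tested gene of the members and 6 related lists at 50 µM CoCl2 against H2O (left) and in knockout 2 against WT (right), with filled points for an adjusted p under 0.05 and red bars for list medians. The member medians lie at -0.56 and -0.43, and those of other immediate early genes at -0.00 and -0.36, of AP-1 partners at 0.36 and -0.24, of ERK feedback genes at -0.01 and -0.12 and of SRF regulators at 0.00 and -0.05.

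Genes that respond to stress and to handling of cultures are given beside these results. Of 8 heat shock and stress genes, 3 were higher and 1 lower at 50 µM, where 30.4% of all tested genes were called higher and 31.1% lower. DDIT3, a factor of the integrated stress response, rose by 0.84 (SE 0.06, edgeR adjusted p = 1.61e-27, with the overlap with other genes given above) and HSPH1, a chaperone, fell by 0.30 (SE 0.02). At 10 µM 2 were higher and 1 lower: ATF4 rose by 0.18, and the fall of HSPA6 by 1.37 was lost in edgeR without H2O replicate 2 (adjusted p = 0.251), 10 µM replicate 1 (0.102) or 10 µM replicate 2 (0.0689). In the knockout average DNAJB1 rose by 0.21 and ATF4 fell by 0.10, the latter call being lost in edgeR without WT replicate 2 (adjusted p = 0.0941). The summed level of the list was 682 to 683 CPM in H2O, 732 to 734 at 10 µM and 719 to 734 at 50 µM. It was 874 to 893 CPM in WT, 872 to 889 in knockout 1, 953 to 954 in knockout 2 and 836 to 840 in knockout 3. The part of stress or handling in the members' differences was not tested.

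Markers of cell state also differed between groups, and not always in the same groups or direction as the members. The summed level of 10 adrenergic markers was 7308 to 7420 CPM in WT and 5523 to 5565 in knockout 2, against 7478 to 7618 in knockout 1 and 7517 to 7527 in knockout 3. MYCN made up much of that sum, at 4600 and 4678 CPM in WT and 2815 and 2837 CPM in knockout 2. Of the 9 adrenergic markers tested, 3 were called higher and 2 lower in knockout 2. In batch 1 the adrenergic sum was 7007 to 7058 CPM in H2O and 6527 to 6540 at 50 µM. At that dose 5 of 9 tested were nevertheless called higher and 2 lower. The 7 mesenchymal markers summed to 1155 to 1161 CPM in H2O and 1536 to 1553 at 50 µM. They summed to 1374 to 1398 CPM in WT, 1003 to 1033 in knockout 1, 1083 to 1105 in knockout 2 and 895 to 911 in knockout 3. These sums hide genes that went the other way. At 50 µM 3 of the 5 tested were called higher and 1, COL3A1, lower by 0.75 on the log2 scale. In knockout 1, 1 of 7 tested was called higher and 5 lower. None was called higher in knockouts 2 and 3, with 4 and 5 lower. Of all tested genes, 7.79%, 12% and 8.9% were called higher in knockouts 1, 2 and 3, and 9.72%, 14.3% and 9.96% lower. The 5 endothelial markers summed to 11.7 to 12.4 CPM in WT and to 1.62 to 4.56 CPM in the knockouts. Their part in the members' differences was not tested, and in bulk RNA fewer cells of a type and less RNA per cell cannot be told apart.

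The members' own profiles were set side by side over the 14 libraries, as Pearson correlations of log2 CPM centred within each batch. The points share groups and batches, so these are descriptions without a test. FOS went most closely with FOSB (r = 0.982), JUN (0.933) and DUSP6 (0.917), and less closely with EGR1 (0.661) and NR4A1 (0.565). EGR1 went with IER2 (0.933) and NR4A1 (0.878), and JUNB with DUSP6 (0.963). EGR3 ran against all 8 other members compared, with r from -0.372 to -0.758.

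Among 13373 genes tested in both batches, those most like FOS were CDH11 (r = 0.983), FOSB (0.982), ROR2 (0.977), TRAF5 (0.974) and NES (0.974). CDH11, a cadherin, had a mean of 138 CPM in WT against 53.2 in knockout 2, and of 35.4 CPM in H2O against 20.3 at 50 µM. The genes most like EGR1 were SRSF3 (0.987), TRIL (0.987), MAP2K6 (0.986), RCC1 (0.985) and NUP210 (0.985). TRIL was at 46.7 CPM in H2O, 23.9 at 10 µM and 5.97 at 50 µM, and at 19.8 CPM in WT and 12.2 CPM in knockout 2. The genes most like JUN were PEAR1 (0.976), FOSB (0.962), PCDH7 (0.962), SYT2 (0.961) and TRAF5 (0.951).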

How the data were processed

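Polyadenylated RNA was sequenced in 14 libraries, 2 per group. Per the submitters' processing notes, Trimmomatic 0.36, STAR 2.6.1d and Subread 1.5.3 were used with GRCh38. The deposited values are raw counts per gene, made by the authors with featureCounts over exons of protein-coding genes with the paired option and no strand option, version 1.5.3 in batch 1 and 2.0.5 in batch 2, per the file headers. Even numbers made up 39.0% to 42.3% of counts from 1 to 10 in batch 1. The batch 2 share was 77.3% to 80.5%, so a count there was mostly 1 read of a fragment. Replicate pairs differed by more than counting noise.

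Each batch was fitted separately in R 4.3.3 with edgeR 4.0.16 (filterByExpr with a minimum count of 10, TMM, a dispersion of at least 0.0001001, glmQLFit, glmQLFTest), over 13636 and 14061 genes. A call needed an adjusted p under 0.05 (Benjamini-Hochberg). CPM used TMM-scaled totals. SE was the absolute log2 fold change over the square root of F. DESeq2 1.42.0, RLE scaling, no filter, no dispersion floor, the legacy quasi-dispersion, 1 fit of all libraries, halved batch 2 counts, a replicate block and leaving out each library were the alternatives.

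Genes named were the 10 members, TET2, and from each related list the called gene with the largest rise and fall in each CoCl2 comparison and the knockout average. For FOS, EGR1 and JUN the 5 most correlated genes were named, on log2 CPM with a prior count of 2. Marker genes given singly beside them were chosen after their values were seen, and 1 marker is not reported here. The members and lists were chosen with earlier results of these data known. Promoter windows came from RefSeq on GRCh38.p14.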

Additional observations from a re-analysis of the deposited data

Results flagged for a closer look

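The effect against WT differed among knockouts 1, 2 and 3 for 14 of 20 genes, 7 of them members (the 20 are the members, TET2 and the genes named for the knockout average), by an edgeR F-test with Benjamini-Hochberg adjustment over all genes. By the same test 37.6% of the 14061 tested genes differed. The related genes among the 20 were picked as the called genes with the largest change of their list, so their count is not an unbiased share. The values are spans on the log2 scale between the highest and the lowest knockout. Among the members the span was 2.66 for FOS, 2.02 for FOSB, 0.92 for DUSP6, 0.82 for EGR1, 0.59 for IER2, 0.39 for JUN and 0.33 for JUNB, and knockout 2 was the lowest of the 3 for each. FOSL1 had a span of 1.28 and CCN2 of 1.74, with knockout 2 the highest of the 3. DNAJB1 had a span of 0.32, DUSP4 of 0.23 and TET2 of 0.32, again with knockout 2 the highest. NAB2 had a span of 0.20 with knockout 2 the lowest, and ATF4 of 0.13 with knockout 3 the lowest.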

How the results depend on the processing

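No member reversed a called direction in any alternative fit, and neither did TET2 in batch 2. The same held for the related genes with the largest rise or fall of their list in any comparison (each knockout singly included). In the comparisons of batch 1 TET2 was not followed through the alternative fits. Of 1096 alternative values for members, 1059 stayed on their side of the threshold, 33 lost a call and 4 gained one; of 1053 values for TET2 and those related genes, 977 stayed and 76 lost a call. Leaving out 1 library in turn gave 6 to 7 members called at 10 µM, 8 at 50 µM in every case, 6 between the doses, 1 to 2 in knockout 1, 6 to 7 in knockout 2, 1 to 2 in knockout 3, 3 to 5 in the knockout average, 7 to 8 in knockout 2 against the mean of knockouts 1 and 3, and 7 for the difference among knockouts. The lone library then left in a group is assumed to vary like the other groups. Counts over all genes moved more: at 10 µM 3098 genes became 1122 in DESeq2, 796 with all 14 libraries in 1 fit and 1862 without 10 µM replicate 2, and between the doses 7198 became 4674 with all 14 libraries. Without WT replicate 1 the 2462 calls of knockout 1, 2653 of knockout 3 and 2656 of the average became 1618, 1619 and 1572. Without knockout 1 replicate 2, knockout 1 had 1385 calls, and without knockout 3 replicate 1, knockout 3 had 1566. Without knockout 2 replicate 1, knockout 2 went from 3698 to 2411 and its comparison with the mean of the others from 4950 to 3258. The gained member calls all came with all 14 libraries in 1 fit: JUNB in knockout 1, IER2 in knockout 3, EGR3 among the knockouts and NR4A1 in knockout 2 against the others.

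With the replicate number as a block, the members called were again 7 at 10 µM, 8 at 50 µM, 7 between the doses, 2, 8 and 3 in knockouts 1, 2 and 3, 5 in the average, 8 in knockout 2 against the others and 7 for the difference. Among those related genes only ELK1 in knockout 3 lost its call under the block (edgeR adjusted p = 0.0527). Deviations of same-numbered libraries correlated at -0.039 to 0.037 between groups over all tested genes. An effect shared by same-numbered libraries on only a few genes would not show in these values. Counts under about 60 limit EGR2 and EGR3, and also FOSB in knockout 2, with 30 and 30 counts.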
